A study of Mus musculus with 4 samples.

Results

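Mouse embryonic fibroblasts were compared here for the genes that Wnt/β-catenin signalling is best known for switching on. The set held 10 genes, Axin2, Nkd1, Nkd2, Lgr5, Lgr6, Tcf7, Lef1, Apcdd1, Notum and Znrf3. They were taken by name from the deposited expression table, and 10 of 10 were found among its 21839 gene symbols. Wild-type fibroblasts from embryos of day 13.5 were grown for 48 h either alone or with bone marrow mesenchymal stem cells (MSCs). Each culture was with or without the NF-κB inhibitor QNZ. RNA of each culture, labelled as that of fibroblasts, was then sequenced. The paper's account of the sequencing says only that fibroblasts were cocultured with MSCs, not whether the cells were in contact. For other assays it describes both direct coculture and a 0.4 μm membrane insert. All 4 groups were of the same genotype, and each was 1 library, so no spread between cultures was known and no test between groups was made. The sources used here do not give the dose of QNZ.

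When Wnt proteins bind Frizzled receptors and their LRP partners, the complex that destroys β-catenin is silenced, and β-catenin enters the nucleus and works with TCF/LEF factors on target genes. Many targets are themselves brakes on the pathway, which act on Wnt proteins, on their receptors or on the destruction complex. Others are receptors for R-spondins, which strengthen Wnt signals, or are TCF/LEF factors. In mesenchymal cells the pathway is known for its part in bone formation. DKK1, the secreted inhibitor that the study examined, blocks it at the LRP receptors.

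The libraries held 13153696 to 15778488 reads assigned to genes. Levels are given as FPKM, reads scaled by gene length and library total. Ratios are of reads scaled by library total only (CPM), with exact binomial 95% intervals that cover counting error only. A gene was called higher, or lower, when its log2(FPKM + 1) moved by 1 or more between the libraries compared. Of the fibroblast markers checked, 9 of 10 had reads in every library, with summed FPKM of 2430 to 5455, and S100a4 had no read in 3 libraries. The 5 endothelial markers summed to at most 0.631 and the 8 macrophage and blood markers to at most 16.9.

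Most of the 10 genes had more reads in cocultured fibroblasts than in fibroblasts alone, but they did not move as a block. By CPM, Nkd2 and Lgr5 had ratios above 1 for coculture and below 1 for QNZ. Tcf7, Lef1, Lgr6 and Znrf3 had their lowest CPM in fibroblasts alone, and those with MSCs, with QNZ and with both lay above it beyond counting error. Apcdd1 went the other way, with its most reads in fibroblasts alone. All but Nkd2 were scarce, with FPKM of at most 3.62 in any library, and 4 genes (Axin2, Nkd1, Lef1 and Notum) stayed under 1 throughout. A gene that stays under an FPKM of 1 cannot reach a difference of 1 on this scale, so these 4 are described by their ratios.

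Promoter sequences from RefSeq (GRCm38.p6) were found for 6 of the 10 genes, with 10 start sites in all. The 250 bases before the start of 3 genes are printed. Nkd2 was printed because it was the most abundant member, Axin2 because it is the usual readout of the pathway, and Lef1 because it was the only one of the 6 genes whose windows held the core CTTTG (or its reverse CAAAG) of TCF/LEF binding sites. The core is in capitals.
Nkd2, chromosome 13, minus strand, 73847632 to 73847881: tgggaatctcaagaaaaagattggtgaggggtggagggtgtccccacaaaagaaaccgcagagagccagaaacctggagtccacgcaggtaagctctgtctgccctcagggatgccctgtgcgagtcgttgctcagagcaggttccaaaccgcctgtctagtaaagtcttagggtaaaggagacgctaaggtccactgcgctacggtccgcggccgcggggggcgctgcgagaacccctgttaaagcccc
Axin2, chromosome 11, plus strand, 108920099 to 108920348: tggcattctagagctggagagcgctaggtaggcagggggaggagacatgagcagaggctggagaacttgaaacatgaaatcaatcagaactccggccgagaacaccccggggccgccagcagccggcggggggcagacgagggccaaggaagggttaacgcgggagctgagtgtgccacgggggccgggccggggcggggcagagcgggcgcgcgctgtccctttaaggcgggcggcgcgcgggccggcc
Lef1, chromosome 3, plus strand, 131110047 to 131110296: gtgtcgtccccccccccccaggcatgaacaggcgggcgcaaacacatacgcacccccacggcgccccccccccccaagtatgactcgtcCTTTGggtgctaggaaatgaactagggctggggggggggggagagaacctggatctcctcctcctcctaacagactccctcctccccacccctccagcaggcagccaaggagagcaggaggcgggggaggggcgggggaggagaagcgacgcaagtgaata
In the Lef1 window the core started 161 bases before the start site. Over all 32817 promoter windows of this length 48.6% held CTTTG on either strand, and 4 of the 10 windows of these genes did, all of them of Lef1. The longer forms CTTTGAA and CTTTGAT, which contain the core, were in 4.46% and 3.21% of all windows and in 0 of the 10. These are matches of letters in a short window and were not tested as binding sites.

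Within the cell, the brakes of the pathway were Axin2, Nkd1 and Nkd2. Axin2 is a scaffold of the complex that destroys β-catenin, and the Naked proteins Nkd1 and Nkd2 bind Dishevelled, which relays the signal from the receptors. Without QNZ, Nkd2 had 645 reads in fibroblasts alone and 1744 with MSCs, and with QNZ it had 422 alone and 1094 with MSCs. Its FPKM were 8.67, 24.3, 5.54 and 17.2 in the same order. Both cocultured libraries were thus above both libraries without MSCs, and each library with QNZ was below its partner without. The coculture ratio was 2.80 (2.56 to 3.07) without QNZ and 3.11 (2.78 to 3.49) with QNZ. On the log2(FPKM + 1) scale the differences were 1.39 and 1.48. The first was below 1 with median-of-ratios scaling (0.89) and with the trend with gene length removed (0.99), and the second lay between 1.23 and 1.96 under every alternative run. In mm10, the build of all positions given, Nkd2 (ENSMUSG00000021567) occupies chromosome 13 from 73818534 to 73847631, minus strand.

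Nkd1, its close relative on chromosome 8 (88521354 to 88594884), was nearly flat. It had 35 reads alone, 51 in coculture, 52 alone with QNZ and 49 in coculture with QNZ. Neighbours in order of level had ratios whose intervals included 1, and its highest library stood at 1.64 times its lowest (1.04 to 2.61). These libraries were picked as the extremes, and the interval does not allow for that choice. Coculture ratios of Nkd1 were 1.51 (0.963 to 2.39) without QNZ and 1.13 (0.749 to 1.70) with QNZ, so this depth could not resolve a difference. Nkd2 was the more abundant of the pair in every library, and the balance shifted. Its FPKM was 17.4 times that of Nkd1 alone (12.4 to 25.2), 32.3 times in coculture (24.5 to 43.6), 7.66 times alone with QNZ (5.74 to 10.4) and 21.1 times in coculture with QNZ (15.8 to 28.7). Such ratios between genes of 1 library do not depend on its depth.

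Axin2 had very few reads without MSCs, with 3 in fibroblasts alone and 3 in fibroblasts alone with QNZ. With MSCs it had 30 reads, and with MSCs and QNZ it had 24. Both cocultured libraries lay above both others, and the ratios of QNZ to none were 0.977 (0.131 to 7.29) alone and 0.905 (0.506 to 1.60) in coculture. Its coculture ratio was 10.4 without QNZ and 9.60 with QNZ, but with 3 reads in the lower library the intervals ran from 3.22 to 53.0 and from 2.91 to 49.8. The FPKM were 0.0354 alone and 0.366 in coculture, a level that 12262 genes exceeded in the cocultured library. Axin2 (ENSMUSG00000000142) lies on chromosome 11 from 108920349 to 108950783. An antisense RNA on the other strand shares 209 of its 5506 exonic bases, and whether reads were counted by strand was not stated.

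**Figure D1:**
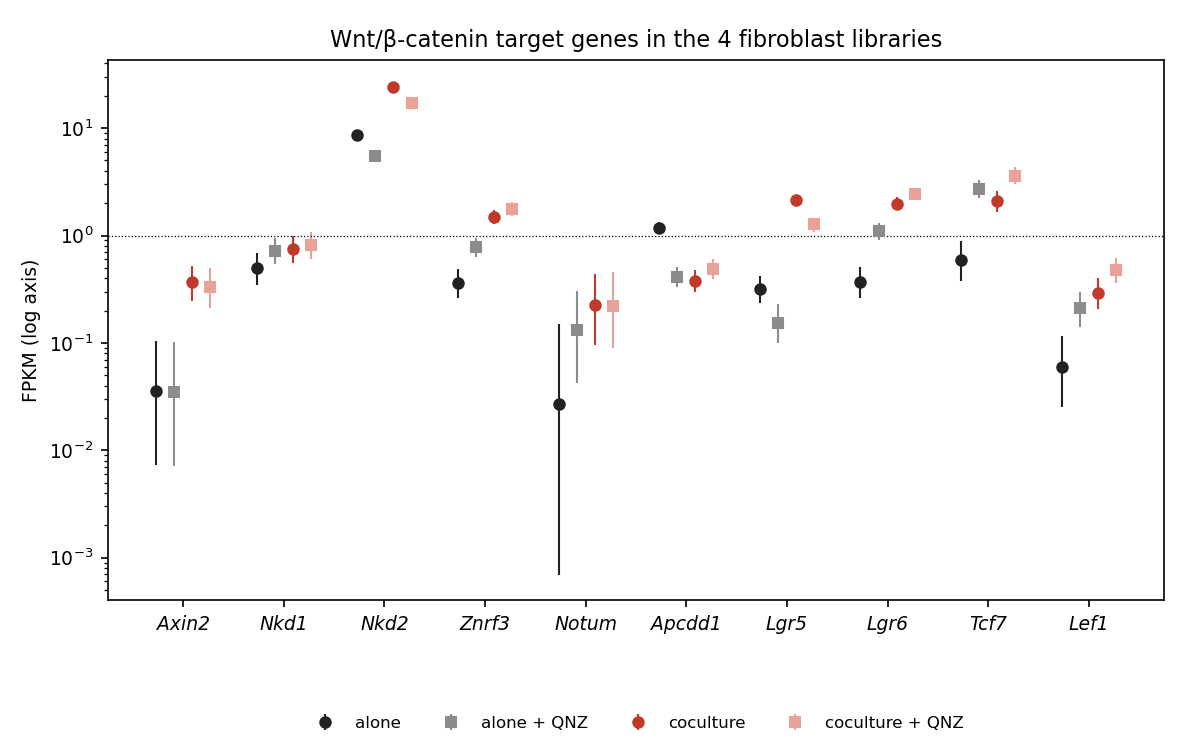
FPKM (log axis) of the 10 genes in the 4 libraries. Each point is 1 library, circles without and squares with QNZ, black and grey for fibroblasts alone and red and pink for coculture, bars are exact Poisson 95% intervals of the reads, and the dotted line is an FPKM of 1. Nkd2 lies highest in each library, between 5.54 and 24.3, and Apcdd1 is the only gene with its highest point in fibroblasts alone.

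At the cell surface and outside the cell, the brakes were Znrf3, Notum and Apcdd1. Znrf3 is a ubiquitin ligase that removes Frizzled receptors from the membrane. It had 44 reads alone, 97 alone with QNZ, 174 in coculture and 183 in coculture with QNZ. The FPKM were 0.362, 0.779, 1.48 and 1.76. The cocultured libraries were the highest, and they did not differ beyond counting error (ratio 1.19, 0.961 to 1.47). Znrf3 had a coculture ratio of 4.10 (2.93 to 5.84) without QNZ and 2.26 (1.76 to 2.93) with QNZ, while its difference of 0.87 on the log2(FPKM + 1) scale was below the size of 1 and was 0.093 with the trend with gene length removed. Znrf3 lies on chromosome 11 from 5276324 to 5444847, and no annotated gene overlaps it.

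Notum, an enzyme that strips Wnt proteins of the lipid they need, was close to the limit of detection. It had 1 read alone, 8 in coculture, 5 alone with QNZ and 7 in coculture with QNZ. The ratio of 8.29 without QNZ had an interval from 1.11 to 368, and with QNZ the ratio of 1.68 (0.459 to 6.71) included 1. Its neighbours in order of level did not differ beyond counting error. Antisense RNAs share 708 and 210 of its 2408 exonic bases.

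Apcdd1, a membrane protein that inhibits Wnt signals by binding Wnt and LRP proteins, was the exception of the set. It had 232 reads in fibroblasts alone, against 73 in coculture, 84 alone with QNZ and 83 in coculture with QNZ. The FPKM were 1.17, 0.381, 0.413 and 0.490. Fibroblasts alone stood above the other 3 libraries, which did not differ from their neighbours beyond counting error (ratios 1.08, 0.783 to 1.51, and 1.19, 0.864 to 1.62). Coculture thus had a ratio of 0.326 (0.247 to 0.426) without QNZ and 1.19 (0.864 to 1.62) with QNZ. On the log2(FPKM + 1) scale the first difference was -0.65, below the size of 1, and it was -1.40 with a pseudocount of 0.1 and -1.76 with the trend with gene length removed. Apcdd1 (ENSMUSG00000071847) lies on the plus strand of chromosome 18 from 62922231 to 62961179, with no overlapping gene, and is the longest of the set at 12884 exonic bases.

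Lgr5 and Lgr6 are receptors for R-spondins and mark stem cells of several epithelia. Lgr5 had 50 reads alone, 325 in coculture, 25 alone with QNZ and 171 in coculture with QNZ, with FPKM of 0.316, 2.13, 0.154 and 1.27. Each of the 4 libraries differed from its neighbour in order of level beyond counting error, and the span from lowest to highest was 13.8 times (9.18 to 21.6). That interval does not allow for the choice of the extremes. Coculture went with more and QNZ with fewer reads in each pair. For Lgr5 the coculture ratio was 6.73 (4.99 to 9.26) without QNZ and 8.20 (5.37 to 13.0) with QNZ. The difference of 1.25 on the log2(FPKM + 1) scale was 0.29 with the trend with gene length removed, and the difference with QNZ was 0.97.

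Lgr6 shared the higher level with MSCs but not the response to QNZ. It had 39 reads alone, 119 alone with QNZ, 202 in coculture and 220 in coculture with QNZ, and the FPKM were 0.369, 1.10, 1.98 and 2.44. The 4 libraries again differed stepwise beyond counting error, with fibroblasts alone lowest. For Lgr6 the coculture ratio was 5.37 (3.79 to 7.77) without QNZ and 2.22 (1.77 to 2.80) with QNZ. The difference of 1.12 on the log2(FPKM + 1) scale was 0.90 with median-of-ratios scaling and 0.45 with the trend with gene length removed. Without QNZ the receptors were about equally abundant, with Lgr6 at 1.17 times the FPKM of Lgr5 alone (0.749 to 1.81) and at 0.931 times in coculture (0.777 to 1.11). With QNZ, Lgr6 was 7.13 times as abundant alone (4.60 to 11.5) and 1.93 times in coculture (1.57 to 2.37). Lgr5 lies on chromosome 10 from 115450311 to 115587780 and Lgr6 on chromosome 1 from 134983301 to 135105276.

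Tcf7 and Lef1 are DNA-binding partners of β-catenin. Tcf7 had 24 reads in fibroblasts alone and 81 in coculture, and it had 113 alone with QNZ and 125 in coculture with QNZ. The FPKM were 0.593, 2.07, 2.73 and 3.62. Fibroblasts alone stood below the other 3 libraries, and coculture and QNZ alone did not differ beyond counting error (ratio 1.31, 0.980 to 1.77). Coculture ratios of Tcf7 were 3.50 (2.19 to 5.77) without QNZ and 1.33 (1.02 to 1.73) with QNZ. The first difference was 0.95 on the log2(FPKM + 1) scale, just under the size of 1, and 1.10 with the trend with gene length removed.

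Lef1 was likewise lowest in fibroblasts alone and highest in coculture with QNZ. It had 8 reads alone, 29 alone with QNZ, 38 in coculture and 55 in coculture with QNZ. Coculture ratios of Lef1 were 4.92 (2.26 to 12.2) without QNZ and 2.28 (1.43 to 3.70) with QNZ. Tcf7 was 10.0 times as abundant as Lef1 by FPKM in fibroblasts alone (4.37 to 25.9) and 7.14 to 13.0 times in the other libraries, and the 4 intervals overlapped. Tcf7 lies on chromosome 11 from 52252371 to 52283014 and Lef1 on chromosome 3 from 131110471 to 131224356. An antisense RNA shares 1208 of the 8788 exonic bases of Lef1, and without a known strand setting its values, like those of Axin2 and Notum, remain uncertain.

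Over the 10 genes, the question of whether fibroblasts changed with MSCs was answered unevenly. Without QNZ, 3 of 10 were counted as higher in coculture (Nkd2, Lgr5 and Lgr6), where 12.5% of all genes were, and none as lower, where 5.73% were. The median difference was 0.63 over the 10 genes and 0.35 over the 11335 genes that reached an FPKM of 1 somewhere. The 10 include 4 genes that never reached it, so the medians are of unlike sets. Of the 11335 genes, 24% were counted as higher and 11% as lower. By counting error alone, 8 of 10 ratios had intervals above 1 and 1 of 10, that of Apcdd1, had one below 1. Intervals lay above 1 for 49.4% of all genes with a read in either library and below 1 for 23.1%. The members' shares stand beside those large backgrounds, since a ratio of 1 is not the level of an average gene.

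**Figure D2:**
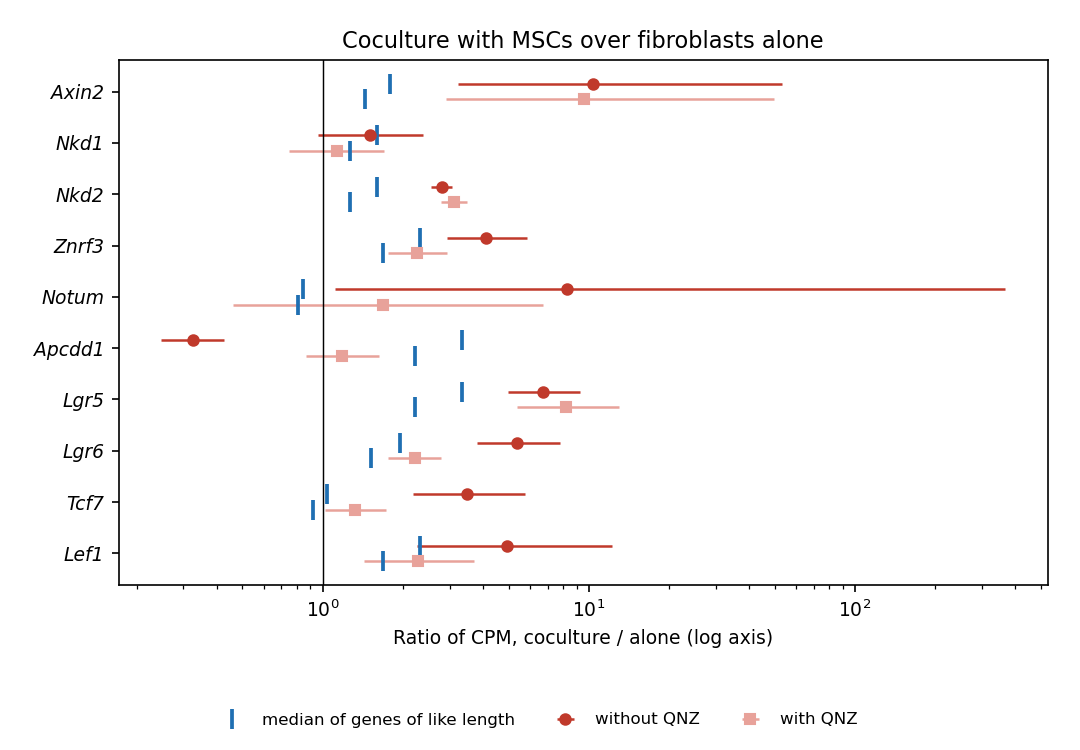
Ratio of CPM (log axis) of cocultured fibroblasts to fibroblasts alone for the 10 genes, without QNZ (red circles) and with QNZ (pink squares). Bars are exact 95% counting intervals and blue ticks the median ratio of all genes of like length. Apcdd1 without QNZ is the only ratio below 1, at 0.326, and Nkd1 lies next to its tick in both pairs.

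Coculture ratios followed gene length over the whole table, and the 10 genes were long, with a median of 6179 exonic bases against 4483 for those 11335 genes. The table was split into 10 length groups. Over genes with at least 10 reads in the pair of libraries, the median ratio climbed from 0.565 among the shortest genes (1772 bases or fewer) to 3.35 among the longest (9914 bases or more). Set beside the median of their own length group, the members kept different margins. Axin2 and Tcf7 had ratios 5.77 and 3.36 times the median of their length groups, and Lgr6, Lef1 and Lgr5 had 2.75, 2.12 and 2.01 times. Axin2 rested on 3 reads in fibroblasts alone. The interval of the Lef1 ratio began at 2.26, below the median of 2.32 of its group. Znrf3 and Nkd2 had 1.76 times, and Nkd1 had 0.947 times. The Nkd2 ratio of 2.80 lay within the interquartile range of its group (0.933 to 2.83). Apcdd1 had 0.0973 times the median of the longest group. Notum, with 1 and 8 reads, had too few to be set beside its group. On the log2(FPKM + 1) scale, where these scarce genes show small differences, removing the trend left Axin2, Nkd1 and Lef1 below 0, at -0.11, -0.11 and -0.56. The part of the length trend in these differences was not tested, and with 1 library per group it cannot be told apart from an effect of coculture.

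**Figure D3:**
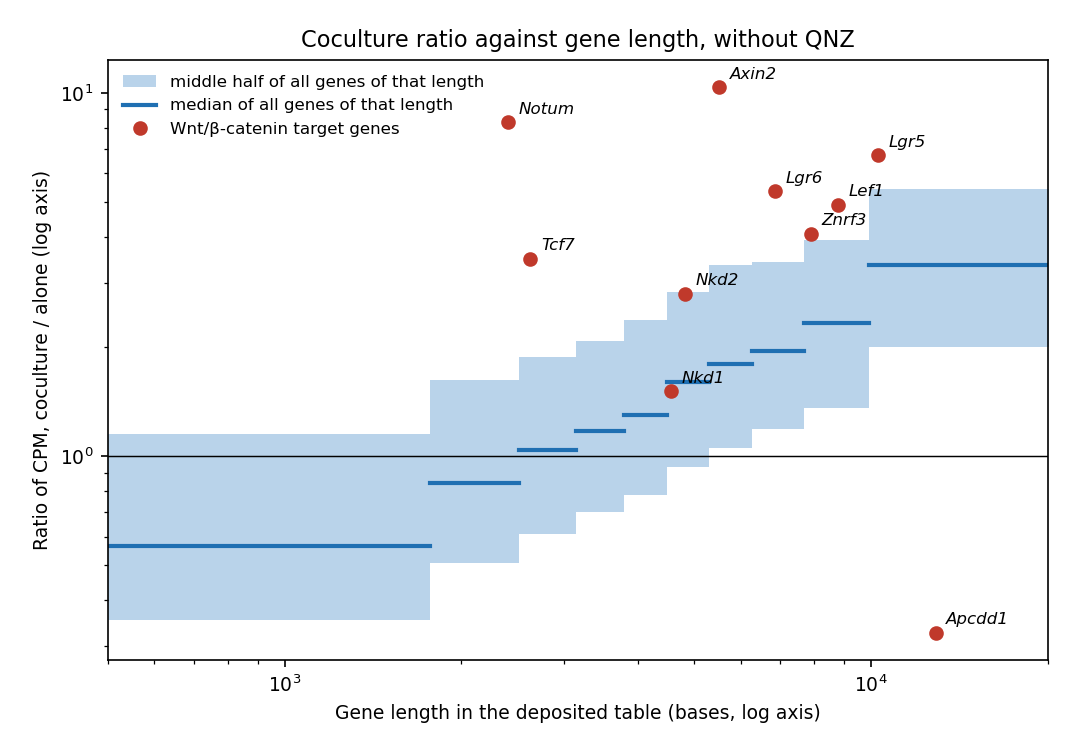
Ratio of CPM of coculture to fibroblasts alone, without QNZ, against gene length in bases (both log axes). Blue lines are the medians and blue bands the interquartile ranges of all genes with at least 10 reads in 10 length groups, and red points are the 10 genes. The medians climb from 0.565 to 3.35, Apcdd1 lies far below them and Axin2 and Tcf7 lie well above, while Notum rests on 1 and 8 reads.

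With QNZ in both cultures the spread was narrower. Only Nkd2 was counted as higher in coculture, 1 of 10, where 7.25% of all genes were, and none as lower, where 4.51% were. The median difference was 0.34 over the 10 genes and 0.18 over the 11335 genes, again of unlike sets. The ratios of 7 of 10 had intervals above 1, where 43.7% of all genes with a read did, and none below, where 24.9% did. The median ratio again climbed with gene length, from 0.603 in the shortest group to 2.23 in the longest. Beside their own length groups, Axin2 (3 reads alone with QNZ), Lgr5 and Nkd2 had 6.63, 3.68 and 2.45 times the median. Lgr6, Tcf7, Lef1 and Znrf3 had 1.46, 1.44, 1.34 and 1.34 times. Nkd1 and Apcdd1 had 0.889 and 0.532 times. Notum, with 5 and 7 reads, was left aside. The coculture ratio with QNZ was divided by that without, gene by gene. It was 0.381 for Tcf7 (0.215 to 0.655), 0.414 for Lgr6 (0.267 to 0.632) and 0.553 for Znrf3 (0.357 to 0.849), so these 3 had smaller coculture ratios with QNZ. It was 3.63 for Apcdd1 (2.38 to 5.54), and the intervals of the other 6 included 1, among them Nkd2 with 1.11 (0.959 to 1.29). Over all genes with a read, 31.2% had intervals below 1 and 10.8% above. The 3 of 10 below 1 were thus near the share of all genes. The median coculture ratios of their length groups were also smaller with QNZ. With and without QNZ these medians were 0.923 and 1.04 for Tcf7, 1.51 and 1.95 for Lgr6, and 1.69 and 2.32 for Znrf3.

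QNZ itself went with changes in both directions, among the 10 genes as over all genes. In fibroblasts alone, Tcf7 was counted as higher, 1 of 10, where 0.577% of all genes were, and none of the 10 was lower, where 0.774% were. The difference of Tcf7 was 1.23, and only 39 genes had a larger one. It lay between 1.12 and 2.03 with the other scalings and the smaller pseudocount, and its ratio was 4.60 (2.94 to 7.47). Lef1, Lgr6 and Znrf3 also had ratios with intervals above 1, of 3.54 (1.58 to 8.96), 2.98 (2.06 to 4.40) and 2.15 (1.49 to 3.15). Apcdd1, Lgr5 and Nkd2 had intervals below 1, with ratios of 0.354 (0.272 to 0.456), 0.488 (0.289 to 0.804) and 0.639 (0.564 to 0.723). That is 4 of 10 above and 3 of 10 below, beside 42% and 14.7% of all genes with a read. The share above was thus near that of all genes. Median ratios rose with gene length here too, from 0.938 in the shortest group to 1.46 in the longest. With that trend removed, Lef1, Lgr6 and Znrf3 had differences of -0.12, 0.33 and 0.083 on the log2(FPKM + 1) scale, while Apcdd1, Lgr5 and Nkd2 stayed below 0. The summed FPKM of the fibroblast markers was 5455 without and 2805 with QNZ in fibroblasts alone, with 6 of 9 measured markers lower, and its part in these values was not tested. The comparison shares the library of fibroblasts alone with the coculture comparison without QNZ, so the low value of a gene there enters both.

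In cocultured fibroblasts none of the 10 genes was counted as higher or lower, where 0.16% and 0.394% of all genes were. Tcf7, Lef1 and Lgr6 had ratios of 1.74 (1.31 to 2.34), 1.64 (1.06 to 2.54) and 1.23 (1.01 to 1.50). Lgr5 and Nkd2 had ratios of 0.595 (0.491 to 0.718) and 0.709 (0.657 to 0.765). These 5 had the same direction as in fibroblasts alone, in libraries that the first QNZ comparison did not use. Apcdd1 and Znrf3, whose intervals also lay clear of 1 in fibroblasts alone, had intervals that included 1 here. Their ratios were 1.29 (0.927 to 1.79), with the direction of Apcdd1 turned, and 1.19 (0.961 to 1.47). With 1 library per group, the shared directions are not a replication. Intervals were above 1 for 3 of 10 and below 1 for 2 of 10, beside 23.6% and 16% of all genes with a read. The trend with gene length was weak here, with a median ratio of 0.974 in the shortest group and 1.05 in the longest.

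**Figure D4:**
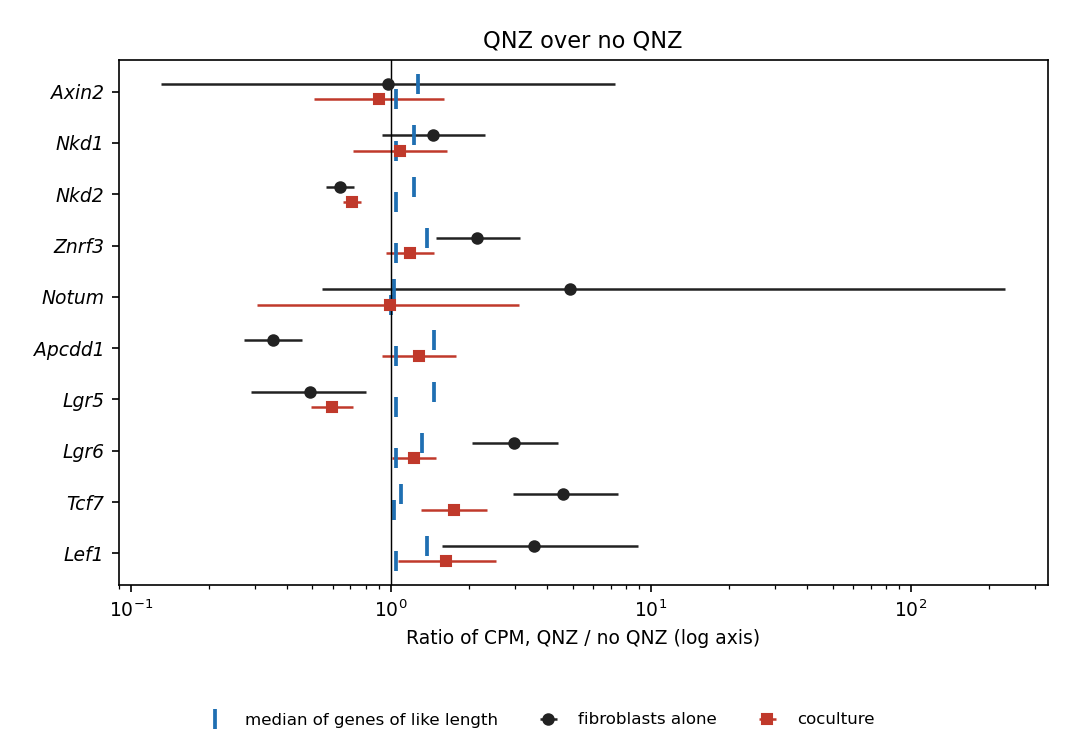
Ratio of CPM (log axis) of libraries with QNZ to libraries without, in fibroblasts alone (black circles) and in coculture (red squares). Bars are exact 95% counting intervals and blue ticks the median ratio of all genes of like length. Tcf7 lies above 1 in both, at 4.60 and 1.74, while Lgr5 and Nkd2 lie below 1 in both.

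The rest of the pathway was described from lists of genes that are not members. Without QNZ, 24% of the 11335 genes, which are called measured here, were higher in coculture and 11% lower. Of 12 measured receptors, 5 were higher and none lower, with a median difference of 0.85, and with the trend with gene length removed 2 were higher and the median was 0.13. The Wnt receptors Fzd1 and Fzd7 had differences of 2.39 and 2.08, with FPKM of 3.53 and 22.7, and of 14.9 and 66.1, alone and in coculture. The co-receptor Lrp6 had 2.01, and 0.87 with that trend removed. Of the ligands, 2 of 6 were higher and none lower, with a median of 0.08. Wnt11 and Wnt10b had 1.62 and 1.11, and Wnt2b had -0.71.

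Of the R-spondins, their receptor Lgr4 and the ligase Rnf43, 3 of 6 were measured and 2 were higher. The R-spondin gene Rspo2, whose product binds Lgr5 and Lgr6, had an FPKM of 1.23 alone, 13.0 in coculture, 0.843 alone with QNZ and 6.80 in coculture with QNZ. Its difference without QNZ was 2.65, and its 4 libraries stood in the same order as those of Lgr5 and Nkd2. That order was not particular to Rspo2, since the secreted antagonists Sfrp1, Sfrp2 and Dkk3, among others, had it too. Lgr4 had 1.43. Of 5 secreted antagonists 2 were higher, Sfrp2 with 1.61 and Sfrp1 with 1.26, and Dkk3 had 0.68. Dkk2 had -0.67 and was chosen once its values were known, at FPKM of 12.0 alone and 7.17 in coculture. Dkk1, named for its place in the study, had FPKM of 0.0535 alone and 0.582 in coculture and was at 0 in both libraries with QNZ. It was scarce, under an FPKM of 1 throughout, and no counting interval is given for it.

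Of the destruction complex 4 of 8 genes were higher and 0 lower (median 0.93), with Apc (2.01), Gsk3b (1.89) and Amer1 (1.25) leading. Of the transducers and coactivators 5 of 10 were higher, including Bcl9l (1.84), Tnks (1.77) and Tnks2 (1.65). With the trend with gene length removed, 0 of the destruction complex and 1 of the transducers were higher, and their medians were 0.04 and 0.38. Of the other TCF factors and corepressors 3 of 8 were higher and none lower, namely Tle2 (2.41), Tle3 (1.40) and Tcf7l2 (1.09). With the trend removed only Tle2 stayed past 1 (1.81), Tle3 had 0.35 and Tcf7l2 0.24, and the median went from 0.71 to 0.13. A further list held other reported Wnt targets, many of which also answer other signals. Of 14 measured, 6 were higher and none lower, with a median of 0.80, and with the length trend removed 6 were higher and 1 lower. Sox9, Ascl2 and Snai2 had the largest differences, of 2.23, 2.12 and 2.08.

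With QNZ in both cultures, 14% of measured genes were higher in coculture and 8.7% lower. The receptors then had 3 of 12 higher and the destruction complex 3 of 8. The transducers had 4 of 10 and the other reported targets 4 of 14. The ligands had 0 of 6, the R-spondin list 2 of 3, the antagonists 1 of 5 and the other TCF list 2 of 8. None of these lists had a gene counted as lower. With the length trend removed, the receptors had 2 higher, the destruction complex and the transducers 0, and the other reported targets 3. The ligands then had 0, the R-spondin list 1, the antagonists 2 and the other TCF list 1. Ascl2, a transcription factor of intestinal stem cells, had FPKM of 0.0400, 3.52, 0.508 and 0.609 in the usual order of libraries, so it was high in 1 library only.

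**Figure D5:**
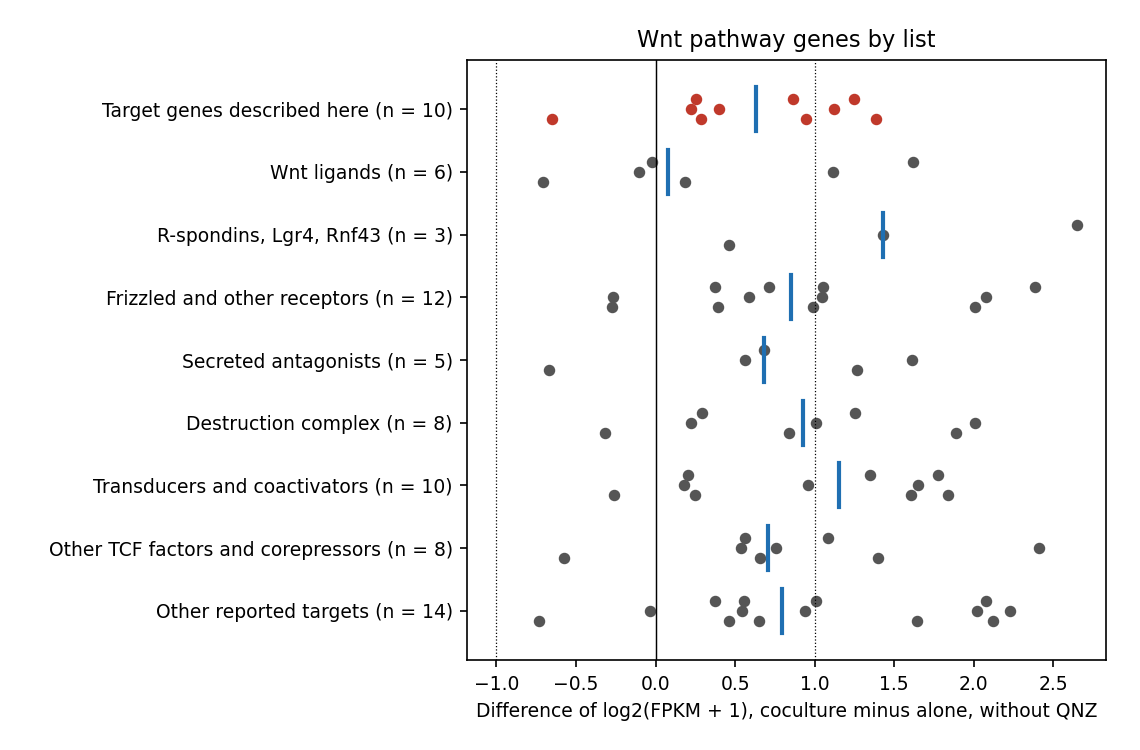
Coculture minus alone in log2(FPKM + 1), without QNZ, for the 10 target genes (red) and the measured genes of the other lists (grey). Each point is a gene, blue bars are list medians, and dotted lines mark -1 and 1, the size at which a gene was counted. The median of the 10, some of which never reach an FPKM of 1, is 0.63. Those of the other lists, of measured genes only, range from 0.08 for Wnt ligands to 1.43 for the R-spondin list.

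Markers of other cells moved with the groups as well. The 9 markers of bone marrow stromal cells had summed FPKM of 111 alone, 868 in coculture, 175 alone with QNZ and 1085 in coculture with QNZ, most of it Grem1. Of the 5 measured ones, 4 were higher in coculture without QNZ, and 3 with the length trend removed. Of the 9, only Adipoq had no read in the libraries without MSCs, and all had reads in those with MSCs. The 8 macrophage and blood markers had 8.04 alone and 16.9 in coculture without QNZ, with 2 of 3 measured ones higher, and 11.1 and 11.2 with QNZ. The fibroblast markers had 5455 alone and 3669 in coculture without QNZ, where Acta2 had 3113 and 985, and 2805 and 2430 with QNZ. Without QNZ, 4 of 9 measured ones were higher in coculture and 1 lower. With the length trend removed, 0 of these 9 were higher and 2 lower, and their median difference went from 0.41 to -0.25. The part of these 3 lists in the differences of the target genes was not tested. Bulk RNA cannot tell more cells of a type from more RNA per cell.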

How the data were processed

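Messenger RNA, from total RNA of fibroblasts, was sequenced as 4 groups of 1 library each. Reads were mapped to mm10 with STAR 2.5.4b by the authors, who name Cuffnorm of Cufflinks 2.2.1 for the FPKM. The deposited counts are unnormalized whole reads per gene. The deposited FPKM equal the count divided by gene length and library total, with 0 of 21862 gene IDs off at a tolerance of 1e-06 (relative). The deposited length equals the exons joined of GENCODE M21 for 10 of 10 genes described. The counter and its strand setting are not given in the sources used here. All columns of values were matched to a sample by name.

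Where a symbol had several gene IDs (23 symbols), their values were added up. A difference of at least 1 in log2(FPKM + 1) was counted. Ratios of CPM have exact binomial intervals, reads have exact Poisson intervals, and the ratio of 2 ratios has an exact conditional interval, all at 95%. For the share over all genes, genes with at least 50 reads in each library used the normal approximation. The length trend was a lowess with a span of 0.3. Scripts were tested on simulated data. All 10 genes were named, with up to 3 genes of each other list that differed most in coculture without QNZ, if their FPKM reached 1 in some library. The values of Ascl2 in all libraries, those of Dkk2 and the order of the libraries of Rspo2 were picked out after they were seen. Members, lists, tests and alternatives were chosen with earlier results of these data known. The alternatives were a pseudocount of 0.1, a filter at an FPKM of 1, median-of-ratios scaling, TPM, a size of 2 and the length trend removed. Tools were scipy 1.17.1, pandas 2.3.3, statsmodels 0.14.6, numpy 2.4.6, matplotlib 3.10.9 and Python 3.11.15.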

Additional observations from a re-analysis of the deposited data

Results flagged for a closer look

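Apcdd1 was lower in coculture than alone without QNZ, with a difference of -0.65 in log2(FPKM + 1), and slightly higher in coculture with QNZ, with 0.076. The second value was -0.0073 with median-of-ratios scaling and -0.74 with the length trend removed, so its sign depends on the processing. Its difference with QNZ likewise was -0.62 in fibroblasts alone and 0.11 in coculture. The opposite signs drew attention to it, and both rest on the high value of 1 library, fibroblasts alone, with 232 reads against 73 to 84 in the others. The ratio of its coculture ratios, 3.63, had a counting interval from 2.38 to 5.54, and the difference between cultures was not tested.

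Notum had a difference with QNZ of 0.14 in fibroblasts alone and of -0.0028 in coculture. It had 1 to 8 reads per library, and the difference was not tested.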

How the results depend on the processing

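Counts and medians are over the 10 genes. For coculture without QNZ, with 3 higher, 0 lower and a median of 0.63, a pseudocount of 0.1 gave 8, 1 and 1.56, TPM gave 6 higher and a median of 1.49, median-of-ratios scaling gave 1 higher, a size of 2 gave 0 higher, and removing the length trend gave 1 higher, 1 lower and a median of 0.19. For coculture with QNZ, with 1 higher and a median of 0.34, the same pseudocount gave 5 and 0.99, TPM 5 and 0.96, and a size of 2 gave 0. For QNZ in fibroblasts alone, with 1 higher, 0 lower and a median of 0.17, the pseudocount gave 2, 1 and 0.66, TPM 2 and 0.41, a size of 2 gave 0, and removing the length trend gave a median of -0.067. Only genes with an FPKM of at least 1 had medians of 1.04 and 0.67 in the coculture pairs, but most of these 6 passed through the library where they were high. For QNZ in coculture the 2 counts stayed at 0 under every alternative. TPM multiplies the coculture ratio without QNZ by 1.43 and median-of-ratios scaling by 0.691. Of 160 differences of single genes under the alternatives, 86 left their counting interval and 0 with a counted difference turned sign. Few differences were counted, and signs did turn among the others. They turned for Nkd1 in every comparison, for Lef1 in all but QNZ in coculture, and for Apcdd1 in coculture with QNZ. For Axin2 they turned in coculture without QNZ and for QNZ in fibroblasts alone. The length trend was fitted on genes with an FPKM of at least 1, so for the 4 genes below it this removal takes off more than their compressed differences can show. No paired analysis was possible because the groups compared share fewer than 2 replicate numbers, with 1 library each, and none was left out for that reason. A model with additive terms for coculture and QNZ was not run.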
